A study of Rattus norvegicus with 64 samples.

Results

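The transcripts described here are those of the rat MHC class II presentation pathway: the alpha and beta chains RT1-Ba, RT1-Bb, RT1-Da and RT1-Db1, the peptide exchange chains RT1-DMa and RT1-DMb, the invariant chain Cd74, and the transactivator Ciita. The members were found by gene symbol, and the 8 symbols match 10 of the 26405 gene identifiers listed in any of the 64 blood profiles, all 10 of them in every profile. RT1-DMa and RT1-DMb each have 2 identifiers that hold equal counts in all 64 rats, so each pair is given once, by its first identifier. The B cell gene Cd79b, which encodes a chain of the B cell receptor complex, serves as the per-rat reference.

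Class II molecules display peptides from engulfed proteins to CD4+ T cells. In blood they are carried mainly by B cells, monocytes and dendritic cells. An alpha and a beta chain pair in the endoplasmic reticulum and are held by the invariant chain, and RT1-DM later helps to exchange the remaining invariant chain peptide for others. Ciita does not bind DNA itself but is recruited by factors sitting on a conserved promoter module, whose Y box is bound by NF-Y.

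Blood came from single male Sprague-Dawley rats of 85 to 90 days, drawn by cardiac puncture at 3 h from the end of a course of 4 injections, 1 every 2 h. The 5 groups were saline at 22.5 °C (6 rats), saline at 16 °C (5 rats), amphetamine (AMPH) at 16 °C (15 rats), AMPH at 22.5 °C (22 rats), and saline in a 39 °C environment, called environmentally-induced hyperthermia (EIH, 16 rats). AMPH was given as 5 and then 7.5 mg/kg, with 10 mg/kg for each later dose, and AMPH rats that became too hot were cooled on ice, so body temperature was partly managed. All rats were of 1 strain and sex with no genetic alteration. Rats with over 5000 counts of Mb, the muscle gene myoglobin, were left out as the study did, since cardiac puncture can carry heart tissue into the blood, which left 59 rats: 4, 5, 13, 22 and 15 in the order above.

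Total counts per rat ran from 19055615 to 40530319. The member counts were 44 or more in every rat except for Ciita, whose lowest count was 7, so the spread between rats and not counting error set the precision. Markers of whole blood were present: none of the 18 B cell, 10 T cell, 10 monocyte or 6 neutrophil genes listed in all profiles was at 0 throughout any group. The 4 saline 22.5 °C rats used and 8 of the AMPH 22.5 °C rats have IDs of a later series (W), and the 5 saline 16 °C rats come from 1 sequencing project. Saline replicate 19 at 22.5 °C stood apart from its group, and results that rest on it are given with and without it.

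The promoter stretches of 5 members are shown because they hold the core of the Y box named above. RefSeq promoter windows of build GRCr8, from 250 bases before to 50 after the start, were found for 6 of the 8 members. The 100 bases from position -120 to -21 relative to the start are printed 5′ to 3′ on the gene's own strand, with the Y box core GATTGG, or its reverse complement, in capitals. All 5 lie on chromosome 20.
RT1-Ba, chr20:4576937-4577036, plus strand: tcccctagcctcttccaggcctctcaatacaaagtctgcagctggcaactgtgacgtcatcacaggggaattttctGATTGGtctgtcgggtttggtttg
RT1-Bb, chr20:4604139-4604238, minus strand: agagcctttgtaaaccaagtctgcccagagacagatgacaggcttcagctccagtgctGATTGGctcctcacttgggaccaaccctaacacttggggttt
RT1-Da, chr20:4515295-4515394, plus strand: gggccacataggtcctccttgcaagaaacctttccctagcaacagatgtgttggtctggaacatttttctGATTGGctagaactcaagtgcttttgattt
RT1-Db1, chr20:4560183-4560282, minus strand: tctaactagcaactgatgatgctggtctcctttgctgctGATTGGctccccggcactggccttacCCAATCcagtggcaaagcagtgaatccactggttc
RT1-DMa, chr20:4712356-4712455, minus strand: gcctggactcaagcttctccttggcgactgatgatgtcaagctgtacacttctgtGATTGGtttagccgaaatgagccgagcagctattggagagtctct

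GATTGG was searched on both strands and lay in 5 of the 6 member windows, against 14.8% of all 33469 windows of the same length. On the gene's strand it began at position -44 in RT1-Ba, -62 in RT1-Bb, -50 in RT1-Da, -81 in RT1-Db1 and -65 in RT1-DMa, and RT1-Db1 had another match on the opposite strand at -55. The window of Cd74 held none. An X box core, AGNAACA, was found in 3 of the 6 windows (RT1-Bb, RT1-Da and Cd74) against 20.2% of all windows, and only in RT1-Da did a match fall within the printed stretch, at -83. A match describes letters and not binding, and RT1-DMa, whose window holds the same Y box core as the RT1-B and RT1-D genes, followed another pattern from rat to rat, as described below.

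The α and β chains of RT1-B, the rat counterpart of HLA-DQ, were highest in the saline groups and lowest in the heated rats. The RT1-Ba level in normalized counts was 5197, 8814, 2674 and 6604 in the 4 saline rats at 22.5 °C and 3730, 4854, 6103, 7721 and 5232 in the 5 at 16 °C. Its lowest, median and highest values were 1616, 3018 and 5714 with AMPH at 16 °C, 1316, 2370 and 9187 with AMPH at 22.5 °C, and 828, 1817 and 5642 in EIH rats. All groups overlapped, but the lowest saline rat, replicate 19 at 22.5 °C, had 2674 and the next lowest saline rat 3730. RT1-Bb had the same order of group medians: 2189, 1860, 1055, 864 and 610 normalized counts.

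The RT1-D chains, counterparts of HLA-DR, showed the same order. RT1-Da stood at 9552, 15166, 4568 and 10085 normalized counts in the 22.5 °C saline rats and at 6090, 8341, 9404, 13176 and 8769 in the 16 °C saline rats. The medians were 5605 with AMPH at 16 °C (range 4141 to 10625), 4812 with AMPH at 22.5 °C (2117 to 14857) and 3846 in EIH rats (1799 to 8880). RT1-Db1 medians were 4327 and 3577 in the saline groups, then 2451, 2043 and 1914. The highest RT1-B and RT1-D values outside saline came from a few rats: AMPH 22.5 °C replicate 17 led that group for all 4 chains, and EIH replicate 4 led the heated group for all 4.

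**Figure D1:**
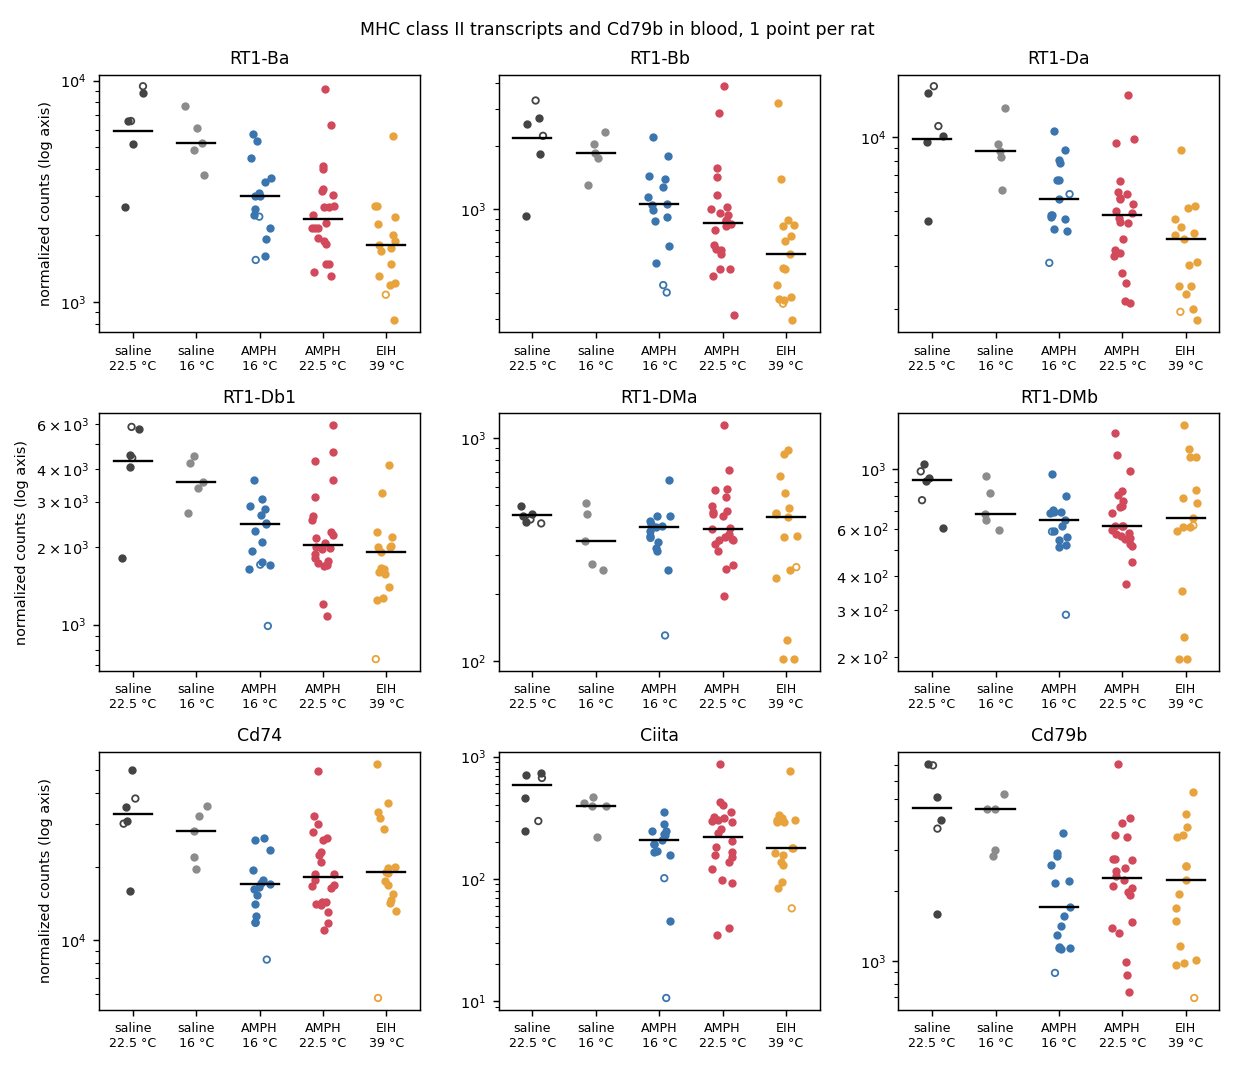
Normalized counts (log axis) of the 8 members and Cd79b, 1 point per rat in each of 5 groups. Black lines are medians of the rats used, and open points are the 5 rats over 5000 Mb counts. The RT1-B and RT1-D medians were lower from left to right. Those of RT1-DMa did not follow that order, and those of RT1-DMb did so except in EIH rats.

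RT1-DM behaved otherwise. RT1-DMa, the alpha chain of the peptide exchange molecule, had group means of 455 ± 30.3 (SD, n = 4) and 368 ± 112 (n = 5) in saline at 22.5 °C and 16 °C, 397 ± 93.6 (n = 13) and 447 ± 197 (n = 22) with AMPH at 16 °C and 22.5 °C, and 424 ± 246 (n = 15) in EIH rats. These means differ by less than the SDs of the treated groups. RT1-DMb means were highest in saline, 872 at 22.5 °C and 739 at 16 °C. They were 657 and 690 with AMPH at 16 °C and 22.5 °C, and 714 in EIH rats, where the SD was 383. The RT1-DMb medians were 915, 684, 649, 615 and 658 in the same order. In heat RT1-DMa ranged from 102 to 882 and RT1-DMb from 197 to 1463, and the SD of RT1-DMa was the largest of the 5 groups, while with AMPH at 22.5 °C RT1-DMa ranged from 196 to 1141.

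Cd74, which guides class II chains to the endosome, had medians of 33011 and 27971 normalized counts in saline at 22.5 °C and 16 °C, 16910 and 18120 with AMPH at 16 °C and 22.5 °C, and 19077 in EIH rats. Unlike the RT1-B and RT1-D chains, its lowest median was in the AMPH rats at 16 °C and not in the heated rats. Ciita stood at 730, 711.8, 248 and 458 normalized counts in the 22.5 °C saline rats and at 397, 469, 220, 397 and 419 in the 16 °C saline rats. Its treated medians were 209, 221 and 179 in the order AMPH 16 °C, AMPH 22.5 °C and EIH, with single rats as low as 34.3. Cd79b medians were 4564 and 4531 in saline, then 1709, 2277 and 2240.

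The 6 comparisons were fitted across all genes with edgeR, with p-values adjusted over all genes, and all 8 members passed the filter on low counts in each. The first asked what neurotoxic AMPH did at room temperature, using the 8 W series AMPH rats and the 4 saline rats that share the series. All 8 members had lower fitted levels with AMPH, from a log2 fold change of -0.03 (SE 0.360) for RT1-DMa to -0.77 (SE 0.582) for Ciita, but none passed the test, with edgeR adjusted p of 0.552 or more. Nor did any of 12853 genes (0% called), although DESeq2 called 202 genes, with no member among them. Single rats moved these values: without AMPH replicate 17 RT1-Ba was at -0.98, Cd74 at -0.61 and Ciita at -1.21, without saline replicate 18 RT1-Ba was at -0.38 and Cd74 at -0.13, and without saline replicate 19 Cd74 was at -0.62, none called. Leaving out single rats moved RT1-DMa between -0.370 and 0.045. For RT1-Ba, 4 of the 8 AMPH rats were below every saline rat and 1, replicate 17, was above every saline rat. For RT1-DMa and for RT1-DMb, 5 of the 8 were below every saline rat and 1, replicate 21, was above. Such counts were not made over all genes. The groups overlapped for all members. The median member log2 fold change was -0.47 against -0.01 over all genes, and 10 of 10 T cell genes and 18 of 18 B cell genes tested also had negative fitted values.

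With AMPH at 16 °C, in a cool environment, the fitted levels of the same chains were below those in saline at 16 °C. RT1-Ba differed by -0.76 (SE 0.247), RT1-Bb by -0.66 (SE 0.235), RT1-Da by -0.54 (SE 0.220) and RT1-Db1 by -0.61 (SE 0.172) on the log2 scale. Cd74 differed by -0.62 (SE 0.186) and Ciita by -0.88 (SE 0.258), whereas RT1-DMa differed by 0.10 (SE 0.183) and RT1-DMb by -0.18 (SE 0.145). None of the 8 passed the edgeR test after adjustment over all genes (adjusted p of 0.103 for RT1-Db1, the lowest, to 0.820), where 0.444% of 12396 genes did (0.234% higher and 0.21% lower). Their unadjusted p was under 0.05 for 6 of 8, and the DESeq2 Wald test called RT1-Db1 (adjusted p = 0.0297), Cd74 (adjusted p = 0.0397) and Ciita (adjusted p = 0.0454), where it called 3.28% of genes, 1.22% as lower.

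Counts of AMPH rats below the saline rats varied between members. They are given as description, and such counts were not made over all genes. For Cd74, 10 of 13 AMPH rats lay below all 5 saline rats and all 13 below the saline median. For RT1-Ba it was 10 of 13 below all saline rats, and for RT1-DMa 1 of 13. Cd79b differed by -1.03 (SE 0.255, edgeR adjusted p = 0.0688), with 11 of 13 AMPH rats below every saline rat. Of the 17 B cell genes tested, 17 had negative values and 2 passed the test, Pax5 at -1.39 and Spib at -1.17, both B cell transcription factors. The summed level of the 18 B cell genes ran from 5574 to 14432 in AMPH rats and from 10705 to 19115 in saline rats. In blood, fewer cells of a type and less RNA per cell cannot be told apart, and the part of B cell number in the class II values was not tested. Each saline 16 °C rat belongs to project H33741, which holds 1 of the AMPH 16 °C rats, so group and project are nearly inseparable here.

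The clearest differences were in EIH rats compared with saline at 22.5 °C. RT1-Ba was lower by a log2 fold change of -1.56 (SE 0.343, edgeR adjusted p = 0.00874), RT1-Da by -1.43 (SE 0.328, adjusted p = 0.0104), RT1-Bb by -1.36 (SE 0.458, adjusted p = 0.0466) and RT1-Db1 by -1.08 (SE 0.278, adjusted p = 0.0168). All 4 RT1-B and RT1-D chains were thus called lower, where 9.37% of 12986 genes were called lower, 7.11% higher and 16.5% in either direction. Ciita had a log2 fold change of -1.17 (SE 0.408, adjusted p = 0.0533) and Cd74 of -0.57 (SE 0.332, adjusted p = 0.220), and neither passed. RT1-DMa (-0.15, SE 0.446) and RT1-DMb (-0.34, SE 0.420) did not pass either.

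Among the 15 EIH rats, 12 were below every saline rat for RT1-Ba, 13 for RT1-Bb, 11 for RT1-Da and 7 for RT1-Db1, and all 15 were below the saline median for RT1-Ba, RT1-Da and RT1-Db1. For RT1-DMa 7 were below and 4 above every saline rat, so the groups were interleaved. No project holds rats of both groups, so heat and sequencing project cannot be told apart. Without saline replicate 18, the highest for all 4 chains but RT1-Bb, none of the members was called (RT1-Ba -1.29, adjusted p = 0.0631), and a joint fit of all groups with project as a term called none (RT1-Ba -1.19, adjusted p = 0.126). Without replicate 17 or 21, RT1-Bb and RT1-Db1 were no longer called, without the filter on low counts RT1-Bb was not (adjusted p = 0.0563), and without replicate 19 Ciita was called as well (-1.41, adjusted p = 0.0382).

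With the 5 saline rats at 16 °C as controls instead, a comparison chosen after the data were seen, the same 4 chains were called lower: RT1-Ba by -1.45 (adjusted p = 0.00223), RT1-Da by -1.29 (adjusted p = 0.00376), RT1-Db1 by -0.90 (adjusted p = 0.0104) and RT1-Bb by -1.23 (adjusted p = 0.0392). In that fit 6.58% of 12462 genes were called lower and 15% in either direction. RT1-DMa then had a value of 0.19 and Cd74 of -0.26, neither called. Temperature and project differ between those groups too.

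Of the cell type lists, only the T cell genes were called lower as a whole in heat. Over all 12986 genes, 9.37% were called lower and 7.11% higher. All 10 T cell genes were called lower in EIH rats than in saline at 22.5 °C, with summed levels of 2086 to 11416 against 11363 to 17517 normalized counts. Of 18 B cell genes, 1 was called lower (Cd180, -0.98), with summed levels of 5811 to 27348 against 7360 to 25965. None of 10 monocyte genes passed, although their median log2 fold change was 0.83 (summed level 65678 to 673557 against 83221 to 358772). Of 8 dendritic cell genes, 2 were called higher, Clec9a at 1.48 and Itgax at 0.95. Their part in the class II values was not tested.

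AMPH at 22.5 °C, where rats became hyperthermic, and AMPH at 16 °C were compared within the sequencing projects they share, 10 and 9 rats, with project as a term. No member passed, where 15.9% of 12091 genes did (7.95% higher and 7.96% lower). The log2 fold changes ran from -0.21 (RT1-Da, SE 0.210) to 0.19 (Cd74, SE 0.199).

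AMPH at 22.5 °C and EIH were compared in the same way (10 and 13 rats). No member passed, where 0.133% of 12055 genes did (0.116% higher and 0.0166% lower). The values ran from -0.23 (Cd74, SE 0.216) to 0.32 (RT1-Ba, SE 0.261), and the 4 RT1-B and RT1-D chains were all on the side of higher levels with AMPH. The saline groups at 16 °C and 22.5 °C differed by -0.04 (RT1-Ba) to -0.45 (Ciita), none called, where 0.00817% of 12238 genes were. Group and project cannot be told apart in that comparison. The AMPH effect at 22.5 °C minus that at 16 °C was tested as an interaction and called in 0 of 14000 genes, with edgeR adjusted p of 0.727 or more for the members.

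**Figure D2:**
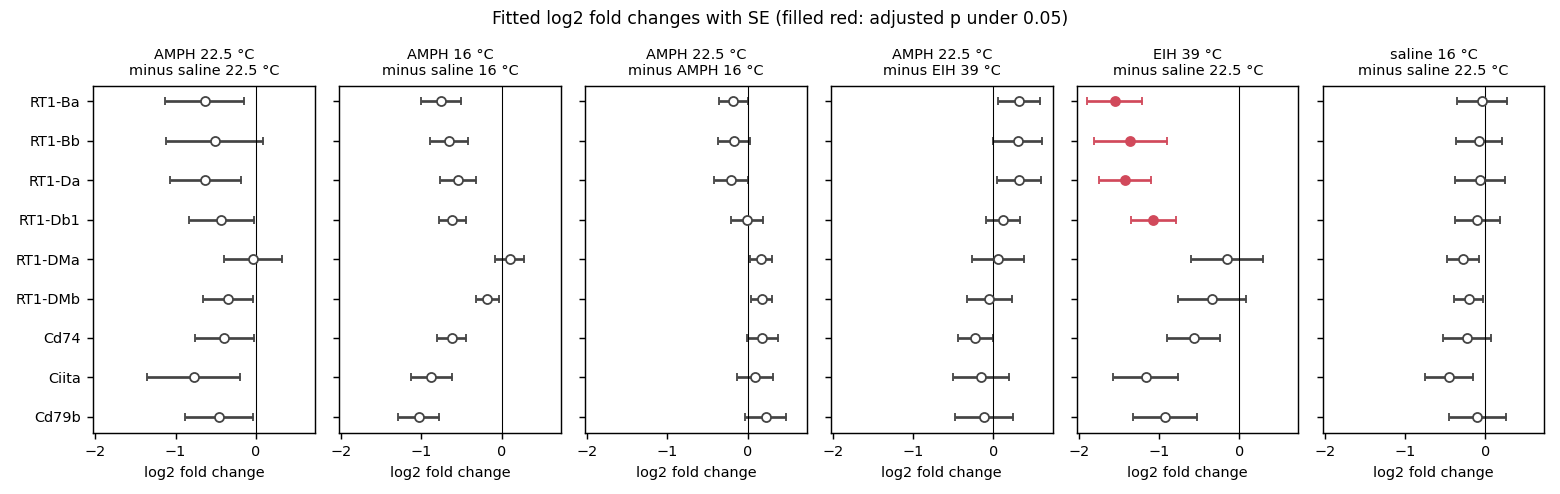
Fitted log2 fold changes (points) with SE (bars) of the 8 members and Cd79b in 6 comparisons, first group minus second. Filled red points passed the edgeR test at an adjusted p of 0.05. Only RT1-Ba, RT1-Bb, RT1-Da and RT1-Db1 did so, all in EIH rats against saline at 22.5 °C.

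Whether the members followed the B cell gene was asked next, with the ratio of each to Cd79b in the same rat on the log2 scale. Of 48 two-sided exact permutation tests (8 members, 6 comparisons, not adjusted), 8 gave p under 0.05. Of these, 5 were in AMPH rats against saline at 16 °C, where all 8 ratios were higher with AMPH. The RT1-DMa ratio differed by 1.22 (exact permutation p = 0.00233) and the RT1-DMb ratio by 0.924 (exact permutation p = 0.00257), whereas that of RT1-Da differed by 0.533 (exact permutation p = 0.0326), RT1-Db1 by 0.472 (exact permutation p = 0.0319) and Cd74 by 0.472 (exact permutation p = 0.0453). Thus Cd79b was lower by more than these members were. The RT1-Ba ratio differed by 0.288 (exact permutation p = 0.250) and that of Ciita by 0.158 (exact permutation p = 0.707).

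In AMPH at 22.5 °C against EIH, permuted within projects, the RT1-Ba ratio was higher with AMPH by 0.540 (exact permutation p = 0.0133) and the RT1-Da ratio by 0.517 (exact permutation p = 0.0208). RT1-Da was the one member whose ratio differed between AMPH at 22.5 °C and at 16 °C, by -0.468 (exact permutation p = 0.0161). No ratio passed in EIH against saline at 22.5 °C, where that of RT1-Ba differed by -0.643 (exact permutation p = 0.0506) and Cd74 by 0.377 (exact permutation p = 0.229), so there the members' lower levels were not shown to exceed that of Cd79b. None passed in AMPH against saline at 22.5 °C, or between the saline groups, where the smallest p the design allows is 0.00794.

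**Figure D3:**
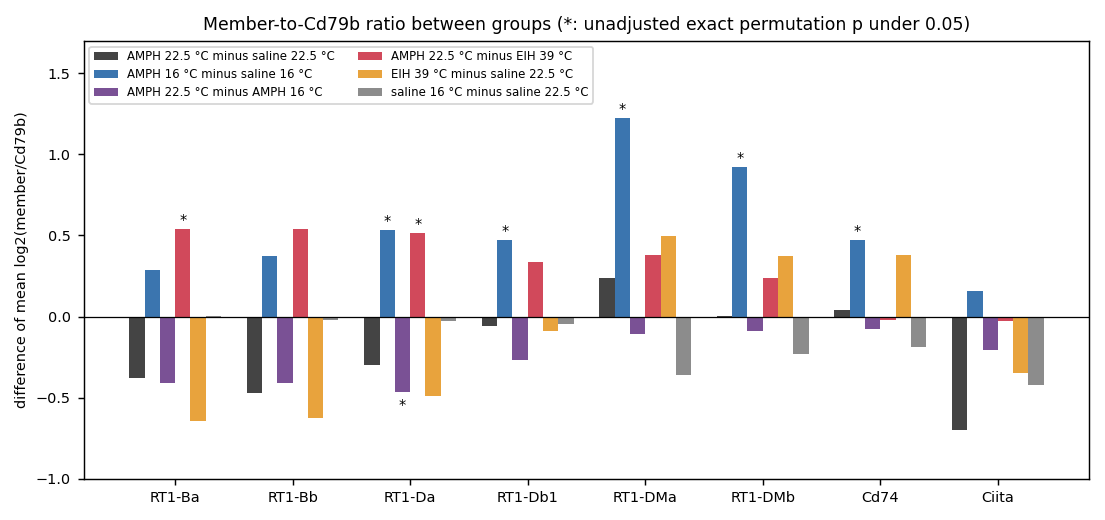
Difference of the mean log2 ratio of each member to Cd79b between the first and second group of 6 comparisons (bars, colour by comparison). Stars mark an unadjusted exact permutation p under 0.05, of which 5 fall in AMPH against saline at 16 °C, the tallest for RT1-DMa at 1.22.

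Over the 59 rats together, the RT1-B and RT1-D chains varied with each other and the RT1-DM chains with each other. As deviations from group means of log2(normalized count + 1), the 6 pairs among RT1-Ba, RT1-Bb, RT1-Da and RT1-Db1 had Pearson r of 0.732 to 0.933, highest for RT1-Ba with RT1-Da. RT1-DMa and RT1-DMb had r = 0.916 with each other but only 0.061 to 0.370 with the RT1-B and RT1-D chains. Cd74 was closest to RT1-Db1 (r = 0.859) and had r of 0.513 to 0.600 with the other RT1-B and RT1-D chains and 0.027 and 0.064 with RT1-DMa and RT1-DMb. Ciita had r of 0.427 to 0.559 with the RT1-B and RT1-D chains, 0.453 with Cd74 and -0.141 and 0.015 with the RT1-DM chains. These are descriptions, and genes of 1 library share its depth and size factor.

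Within groups the sets were not the same. In AMPH rats at 16 °C, RT1-DMb had a lower r with RT1-DMa (0.658) than with RT1-Da (0.750) or Cd74 (0.735), and its r with RT1-Ba was 0.592. In AMPH rats at 22.5 °C, RT1-DMb had r = 0.865 with RT1-DMa and 0.680 with RT1-Db1. In EIH rats RT1-DMa and RT1-DMb had r = 0.968, and with Cd74 they had r of -0.413 and -0.479. Ciita had its highest r with the RT1-B and RT1-D chains in EIH rats, 0.646 to 0.878, but in AMPH rats at 16 °C these were -0.376 to 0.020. In that AMPH group, replicate 8 had the lowest Ciita (44.8 normalized counts) with the highest RT1-Ba (5714) and RT1-Da (10625). Replicate 7 had the highest Ciita (354) with the highest RT1-Bb (2209) and RT1-Db1 (3621). How far these r rest on replicate 8 was not tested. With Cd74 the RT1-DM chains had r of 0.461 and 0.597 in AMPH rats at 22.5 °C. The differences between groups were not tested.

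**Figure D4:**
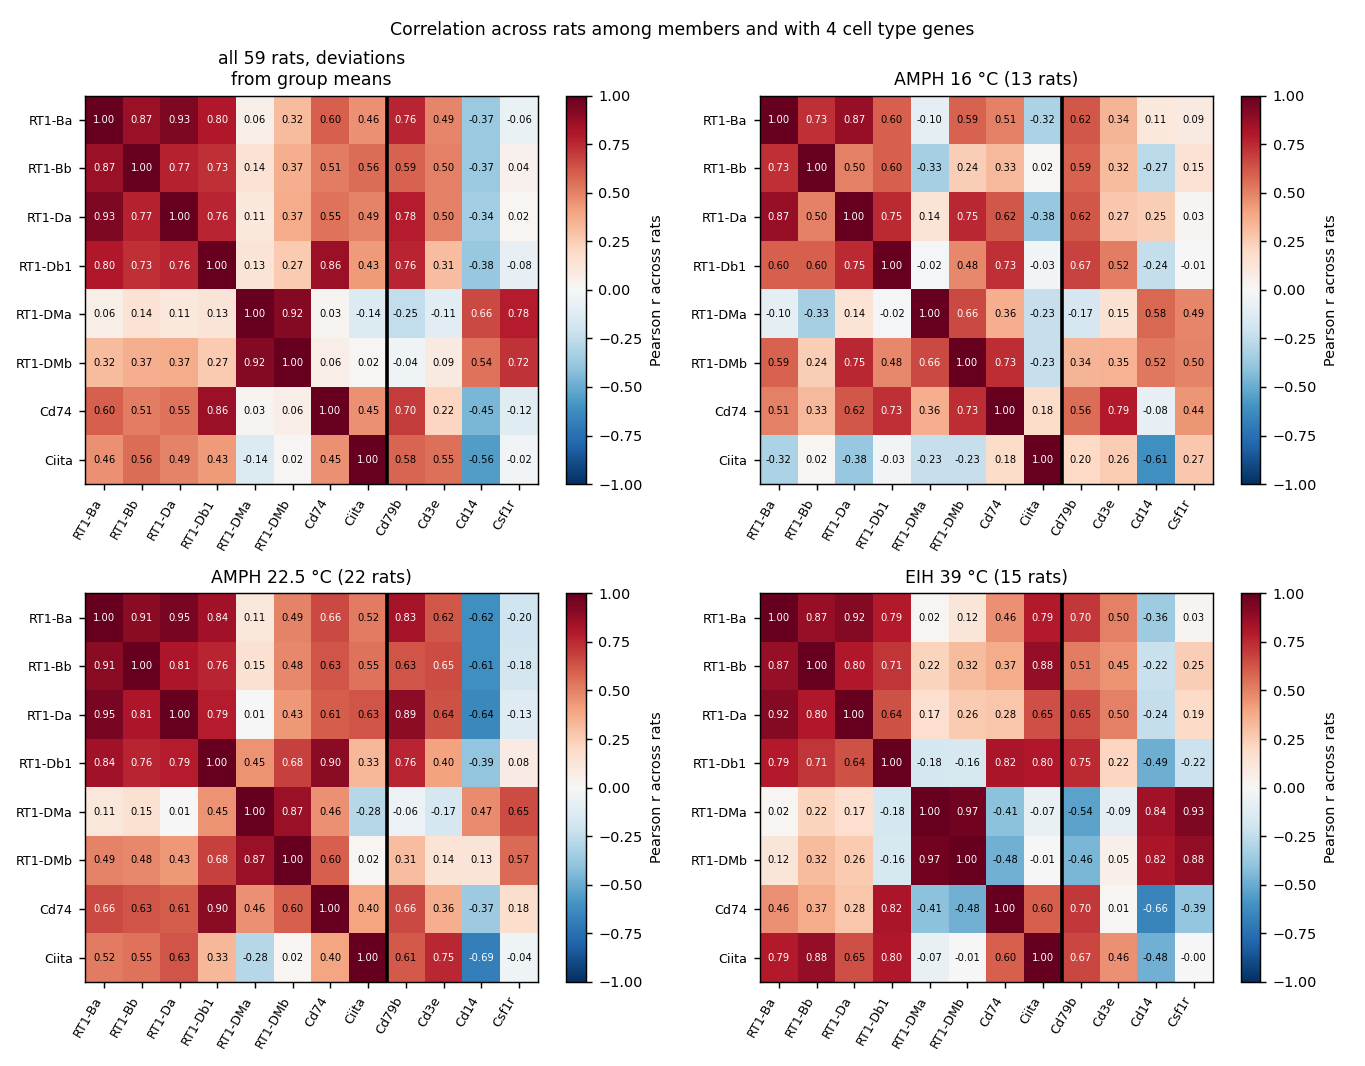
Pearson r across rats among the 8 members (left of the thick line) and with Cd79b, Cd3e, Cd14 and Csf1r (right of it), over all 59 rats as deviations from group means and in the 3 groups of at least 6 rats. Red is positive and blue negative. Over all rats RT1-DMa and RT1-DMb stand apart and are red with Csf1r, and the RT1-B and RT1-D chains are red with Cd79b. In AMPH rats at 16 °C RT1-DMb is also red with RT1-Da (0.750) and Cd74 (0.735).

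The RT1-B and RT1-D chains, Cd74 and Ciita rose and fell with Cd79b from rat to rat. In the 22 AMPH rats at 22.5 °C, r with Cd79b was 0.893 for RT1-Da (Spearman rho 0.889, permutation p = 1e-05 for both, the smallest that 100000 permutations can give, adjusted p = 0.000128) and 0.830 for RT1-Ba (rho 0.824, permutation p = 1e-05 for both). It was 0.760 for RT1-Db1, 0.662 for Cd74, 0.632 for RT1-Bb and 0.611 for Ciita, with Benjamini-Hochberg adjusted permutation p of 0.000560 to 0.00981 over 128 relations. The rho of RT1-Db1 and Cd74 passed too. That of RT1-Bb (0.461, adjusted permutation p = 0.0819) and that of Ciita (0.508, adjusted permutation p = 0.0553) did not. Of 8036 other genes, 0.0498% had an r with Cd79b as high as RT1-Da. Without the 2 rats farthest from the median of Cd79b the r of RT1-Da was 0.828, that of RT1-Ba 0.755, that of RT1-Bb 0.446 and that of Ciita 0.321.

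Over all 59 rats, as deviations from group means, r with Cd79b was 0.785 for RT1-Da, 0.763 for RT1-Db1, 0.762 for RT1-Ba, 0.701 for Cd74, 0.593 for RT1-Bb and 0.580 for Ciita, all with an adjusted permutation p of 0.000274 or less. As deviations from the means of group and project in the 45 rats of projects with at least 2 rats of a group, these were 0.756, 0.786, 0.71, 0.785, 0.595 and 0.661 in that order. RT1-DMa (r = -0.246, adjusted permutation p = 0.162) and RT1-DMb (r = -0.040, adjusted permutation p = 0.861) showed no such relation. In EIH rats the relation to Cd79b held for RT1-Db1 (r = 0.750), RT1-Ba (r = 0.705), Cd74 (r = 0.704), Ciita (r = 0.667) and RT1-Da (r = 0.648), but within projects (11 rats) r was 0.549 for RT1-Db1, 0.358 for RT1-Ba, 0.701 for Cd74, 0.272 for Ciita and 0.412 for RT1-Da, whose rho over the 15 rats did not pass (adjusted permutation p = 0.0579). In the 13 AMPH rats at 16 °C, 1 of 8 passed, RT1-Db1 (r = 0.675, adjusted permutation p = 0.0366), but its Spearman rho of 0.643 did not pass (adjusted permutation p = 0.0630), and r was 0.451 without the 2 farthest rats.

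RT1-DM followed Csf1r, the receptor for the monocyte growth factor M-CSF. Over all 59 rats r was 0.784 for RT1-DMa and 0.724 for RT1-DMb (rho 0.696 and 0.605, permutation p = 1e-05 for all, adjusted p = 0.000128 for r), and 0.800 and 0.718 within group and project. At most 0.535% of 8036 other genes had as high an r with Csf1r. Of the other 6 members none passed, with r between -0.118 and 0.041. In EIH rats r was 0.932 for RT1-DMa and 0.884 for RT1-DMb, and 0.880 and 0.794 without the 2 rats farthest from the Csf1r median. EIH replicates 5, 7 and 8 had the lowest RT1-DMa levels of the group, 102, 102 and 125, and their levels of RT1-DMb, 197, 197 and 238, were the lowest too. In the AMPH rats at 16 °C, where Csf1r ranged only from 1380 to 2194 normalized counts, neither passed (r = 0.487 and 0.497), and without the 2 farthest rats both were negative (-0.105 and -0.190).

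**Figure D5:**
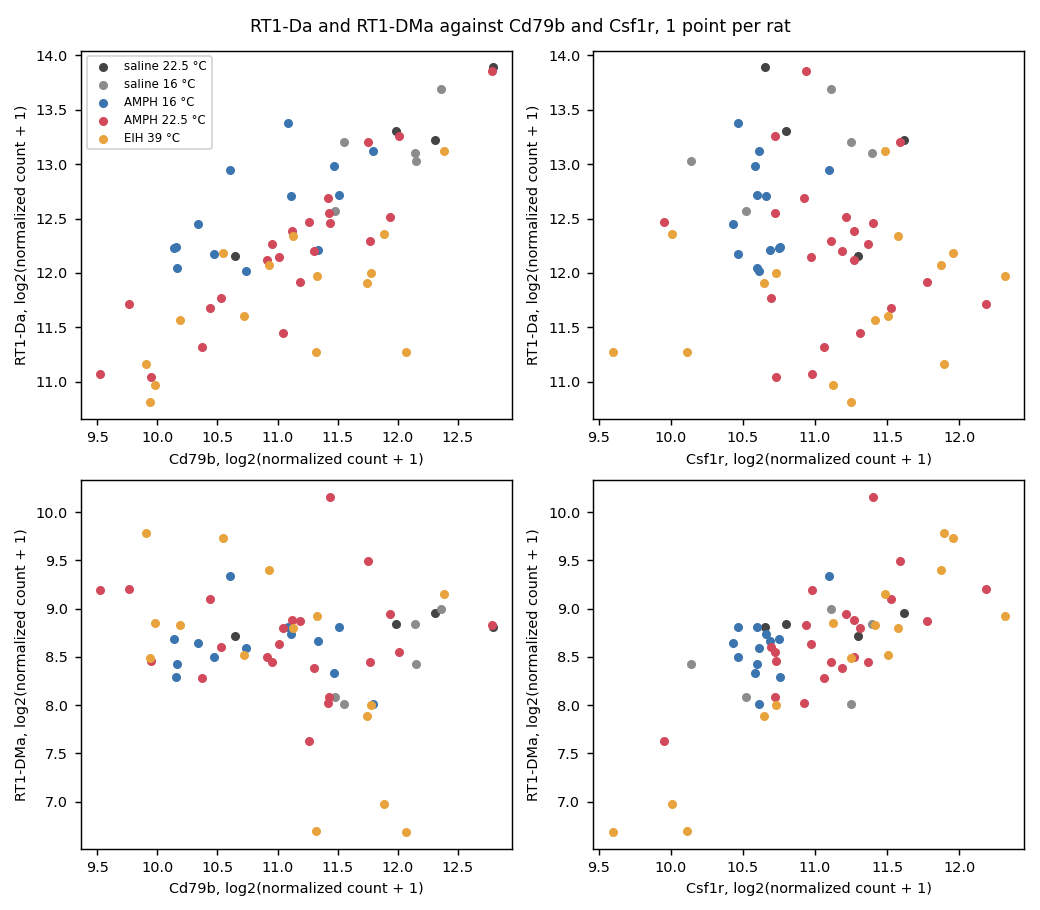
RT1-Da (top) and RT1-DMa (bottom) against Cd79b (left) and Csf1r (right), as log2(normalized count + 1), 1 point per rat coloured by group. RT1-Da rises with Cd79b (r = 0.785 as deviations from group means) and not with Csf1r (0.019), and RT1-DMa rises with Csf1r (0.784) and not with Cd79b (-0.246).

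Cd14, a monocyte receptor for bacterial lipopolysaccharide, gave the same division over all rats but not in every group. Over all 59 rats RT1-DMa (r = 0.659) and RT1-DMb (r = 0.542) were positively related to Cd14, while the other 6 members were negatively related, from -0.345 (RT1-Da) to -0.562 (Ciita), all with an adjusted permutation p of 0.0336 or less for r. For the 4 RT1-B and RT1-D chains, the Spearman rho was between -0.285 and -0.345, and 3 of these 4 had an adjusted permutation p above 0.05. Within groups, RT1-DMa (r = 0.839) and RT1-DMb (r = 0.815) passed for r only in EIH rats. With AMPH at 22.5 °C their r with Cd14 was 0.475 and 0.132, and at 16 °C 0.575 and 0.525. At 16 °C RT1-Da (0.247) and RT1-Ba (0.108) were positive too, without passing, while RT1-Bb, RT1-Db1, Cd74 and Ciita were negative. Over all 59 rats Cd3e, a chain of the T cell receptor complex, was related to Ciita (r = 0.551), RT1-Bb (r = 0.504), RT1-Da (r = 0.5005) and RT1-Ba (r = 0.492). Their adjusted permutation p was 0.00177 or less, while Cd74 did not pass (r = 0.217, adjusted permutation p = 0.241). In AMPH rats at 16 °C, however, Cd74 was the only member to pass with Cd3e (r = 0.789, adjusted permutation p = 0.00628, rho 0.830). There its r with Cd79b was 0.556 (adjusted permutation p = 0.112). With AMPH at 22.5 °C and in EIH rats, Cd74 did not pass with Cd3e (r = 0.363 and 0.012).

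The genes most like the average class II member were sought with a score. It was the mean standardized deviation of the 7 members other than Ciita over 59 rats. The score averages different patterns, since RT1-DMa and RT1-DMb had r of 0.061 to 0.370 with the RT1-B and RT1-D chains. Their r with Cd79b was -0.246 and -0.040, against 0.593 to 0.785 for the other members of the score. How the ranks would change without the RT1-DM chains was not tested. Among 8035 other genes that averaged 100 or more normalized counts, the highest r were those of Iah1 (0.805), RT1-DOa (0.789), Ash2l (0.766), Akr1b1 (0.765), Bscl2 (0.754), GSTA6 (0.744), Atxn10 (0.711), Wibg (0.707), Myg1 (0.696) and Aga (0.691). RT1-DOa, which encodes a chain that restrains RT1-DM, was the only class II gene among them. Cd79b ranked 48th in this order (r = 0.635), and 3 of 15 B cell genes were among the first 50. The median r was 0.4934 for B cell genes, 0.350 for T cell genes, -0.115 for monocyte genes and -0.351 for neutrophil genes, against -0.079 over all genes.

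The rest of the pathway did not as a whole share the lower levels of the RT1-B and RT1-D chains in heat. In EIH rats against saline at 22.5 °C, 9.37% of 12986 genes were called lower and 7.11% higher. Of the other class II genes, 4 of 5 identifiers tested were called lower in EIH rats than in saline at 22.5 °C (median -2.18), with RT1-Ha at -2.96 (SE 0.615, adjusted p = 0.00657), and another identifier, written RT1-HA, at -2.73. Whether reads were divided between class II genes of similar sequence was not tested. Of the 14 class II regulators, 1 was called lower in EIH rats, Nfyb, a subunit of NF-Y, at -0.79 (SE 0.159, adjusted p = 0.00567), and 0 higher, with a median of -0.07. Of the 11 genes for peptide loading and turnover, 1 was called higher, the cathepsin Ctsd at 1.81 (adjusted p = 0.00937), with a median of 0.30. The counts of called regulators and of called loading genes are near the shares over all genes. Of the 9 class I presentation genes, 3 were called lower and 1 higher, among them the immunoproteasome subunit Psmb9 at -1.04 (adjusted p = 0.0146) and RT1-A2 at 0.99 (adjusted p = 0.0474).

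Between AMPH at 22.5 °C and at 16 °C, where no member passed, other genes of these lists did. Over all 12091 genes, 7.95% were called higher and 7.96% lower, and whether the list counts exceed these shares was not tested. Among regulators, Pou2af1, a B cell coactivator, was called higher at 22.5 °C (0.97, adjusted p = 0.00190), and Prdm1, a repressor of Ciita in plasma cells, lower (-0.67, adjusted p = 0.0364). In all, 2 of 14 regulators were called higher and 1 lower, not far from the shares over all genes. Ctsl1, a cathepsin that trims the invariant chain, was higher (1.38, adjusted p = 0.000267), as was the costimulatory gene Cd86 (0.81, adjusted p = 0.0436), in a list with 3 of 11 higher and 0 lower. Of the class I genes, 3 of 9 were lower and 0 higher, with Psmb9 at -0.95 (adjusted p = 0.000346) and the peptide transporter Tap1 at -0.76 (adjusted p = 0.00280). In the other 4 comparisons no gene of these 4 lists was called.

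Within the heated group, rats of project V06504 (5 of 15) had higher Cd74 than the others by 0.805 on the log2 scale (exact permutation p = 0.0153, 18768 to 52853 against 13172 to 36407 normalized counts) and lower RT1-DMb by -1.12 (exact permutation p = 0.0266). RT1-Ba differed by 0.01 (exact permutation p = 0.944) and RT1-Da by -0.16 (exact permutation p = 0.655) between these projects. Among AMPH rats at 22.5 °C, no member passed a permutation test of the means between the 8 W series rats and the other 14 (p of 0.0777 for Cd74 to 0.672 for RT1-DMa). The reference gene Cd79b had a larger difference than any member, higher in the W series by 0.647 on the log2 scale (permutation p = 0.0554).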

How the data were processed

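Globin-depleted whole blood RNA of 64 single rats was sequenced with a stranded mRNA kit as paired reads of 51 bases. The authors called bases with CASAVA 1.8.2, clipped reads, aligned them with Bowtie 0.12.9 to the rat transcriptome of Ensembl release 70 (rn5) and deposited the expected counts per gene of RSEM 1.2.0, not normalized. Expected counts were rounded to whole numbers here. Profiles listed 6 different gene sets, and a gene entered a fit if every rat of that fit listed it. Rats over 5000 Mb counts were left out.

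Comparisons used edgeR 4.0.16 in R 4.3.3 (TMM, quasi-likelihood test, at least 10 counts in as many rats as the smaller group holds, Benjamini-Hochberg threshold 0.05), with project as a term where groups share projects. DESeq2 1.42.0 gave size factors and the alternative test. Levels are counts divided by those size factors. The pseudocount was 1 for correlations and ratios. Python 3.11.15, numpy 2.4.6, scipy 1.17.1, pandas 2.3.3 and matplotlib 3.10.9 did the rest. Fits and permutations were tested on simulated data. The lowest chi-square per gene between rats of a group was 52.4, so no rat was counted as a duplicate.

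Labels do not say how RSEM divides reads of near-identical genes, and how reads were divided between the paired RT1-DM identifiers was not tested, so RT1-DM levels are those of 1 identifier. The members, gene lists and tests were chosen with earlier results of these data known. Named genes were the members, Cd79b, the 2 called genes of each list with the largest absolute change, and the 10 genes most like the member score. Marker lists of B, T, monocyte, dendritic, neutrophil, red cell and cardiac muscle genes were used as checks. Alternatives were the size factors, the test, the filter, the Mb criterion, a joint fit with project, the replicate block, a pseudocount of 10 and leaving out single control rats or single W series AMPH rats.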

Additional observations from a re-analysis of the deposited data

Results flagged for a closer look

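In the groups of 4 to 10 rats (saline at 22.5 °C, saline at 16 °C and the 8 W series AMPH rats at 22.5 °C), 24 sets of member levels were examined for a rat far from the others by Dixon's criterion. Chance flags about 1 in 20 such sets. Among the W series AMPH rats, replicate 21 had an RT1-DMa level of 1141 normalized counts while the other 7 were between 196 and 454. It had 1373 normalized counts of RT1-DMb and 39.7 of Ciita. Replicate 21 was the only rat of its sequencing project, V12981, so rat and project cannot be told apart. Replicate 17 had a Ciita level of 872 normalized counts while the others were between 39.7 and 404, and it led the group for RT1-Ba, RT1-Bb, RT1-Da, RT1-Db1, Cd74 and Cd79b. No member was called in the interaction test of the AMPH effect at 22.5 °C against 16 °C, which called 0 of 14000 genes. With SEs of 0.504 to 0.782 for the members, it cannot show that the effects were equal. The largest difference was that of RT1-DMa, -0.944 (SE 0.562).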

How the results depend on the processing

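Of 648 values for single members under alternatives, 596 kept their direction and their side of the threshold, 13 lost a call, 8 gained one and 31 changed sign, all of these last values not called. Counts of genes called moved most. With the DESeq2 Wald test they were 202, 407, 262, 3364 and 1376 for AMPH against saline at 22.5 °C (0 in edgeR), AMPH against saline at 16 °C (55), AMPH at 22.5 °C against EIH (16), EIH against saline at 22.5 °C (2140) and saline at 16 °C against 22.5 °C (1). With the joint fit with project the first 4 were 355, 0, 380 and 402. With the Mb rats kept they were 28 for AMPH against saline at 16 °C, 4351 for EIH against saline and 69 between saline groups. All AMPH rats against saline at 22.5 °C gave 804, and all rats without the project term 526 for AMPH at 22.5 °C against EIH. Leaving out single rats gave 8 to 39 for AMPH against saline at 16 °C, 270 to 1978 for EIH against saline and 0 to 2096 between saline groups, with 2096 without saline replicate 19. The replicate block, which also changed the rats to those with a shared number (4 and 4 in place of 13 and 5, and 15 and 15 without the project term in place of 10 and 13 with it), gave 116 for AMPH against saline at 16 °C and 279 for AMPH at 22.5 °C against EIH. Same-numbered rats did not deviate together in every pair (correlation over 0.1 in 3 of 4, 0 of 4, 4 of 13 and 7 of 15 pairs), so numbers were not used as pairs. In the same order, the mean correlation of same-numbered rats was 0.237, -0.054, 0.011 and 0.115. For rats of different numbers it was -0.080, 0.018, 0.001 and -0.009. Whether numbers pair rats was not settled. The block changed no member's call, and EIH or saline at 16 °C and saline at 22.5 °C share no numbers.

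With the Mb rats kept, 1 member ratio to Cd79b differed in AMPH against saline at 22.5 °C (RT1-Da) and 1 in EIH against saline (RT1-Ba), where none did before. The r of RT1-DMb with Cd79b changed sign to 1.83e-05 with the Mb rats kept and to 0.060 within group and project. The median r among members was 0.454 and within group and project 0.546. For RT1-DMa, AMPH against saline at 22.5 °C, the value was 0.015 with the Mb rats kept, 0.029 with the block and -0.370 to 0.045 without single rats, and at 16 °C -0.0066 to 0.236. RT1-DMb at 16 °C was 0.076 in the joint fit. Between AMPH at 22.5 °C and 16 °C, RT1-Db1 was 0.056 with the Mb rats kept and 0.044 without the project term, and Ciita -0.060 with the block. Against EIH, RT1-DMb was 0.13 with the block and Ciita 0.013 without the project term. RT1-DMa was 0.19 in EIH against saline at 16 °C. Between saline groups, the joint fit gave RT1-Ba 0.46, RT1-Bb 0.62, RT1-Da 0.055 and RT1-Db1 0.068, and leaving out single rats gave RT1-Ba -0.25 to 0.22, RT1-Bb -0.29 to 0.12, RT1-Da -0.28 to 0.21, RT1-Db1 -0.32 to 0.11 and Cd74 -0.43 to 0.045. With the Mb rats kept, the Ciita ratio to Cd79b was -0.059 in AMPH against saline at 16 °C and the RT1-Ba ratio -0.053 between saline groups. The cause of these changes was not tested.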

Other observations

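The 5 rats over the Mb criterion were in no mean. In the saline rats at 22.5 °C left out, RT1-Ba was 9434 and 6569, RT1-Da 16115 and 11092, and Cd74 38103 and 30041 normalized counts. For RT1-Ba and RT1-Da the first of these was above every rat of its group that was used (highest 8814 and 15166). The EIH rat left out (replicate 12) had the lowest Cd74 of all 64 rats, 5771, with RT1-Ba at 1080 and Ciita at 57.3. The AMPH 16 °C rats left out had Cd74 of 8299 and 11743, and replicate 12 of these had the lowest Ciita of all, 10.6. These low levels are given as values only.

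The summed level of 5 red cell identifiers had a median of 1.95e+06 normalized counts in saline at 22.5 °C and 3.84e+06 in EIH rats, with 0 of 5 called by edgeR (2 at an unadjusted p under 0.05), and 2 of 5 were called lower in AMPH rats at 22.5 °C than at 16 °C, Hba-a2 by -1.49 and Hba2 by -1.42. The 5 cardiac muscle genes, with a summed median of 7.16 in saline at 22.5 °C, had medians of 75.1, 49.0 and 37.4 in AMPH at 16 °C, AMPH at 22.5 °C and EIH rats after the Mb criterion. Of these, 1 to 5 passed the filter on low counts in 5 of the 6 comparisons and none between the saline groups, and edgeR called 0, with 2 at an unadjusted p under 0.05, both in AMPH against saline at 16 °C. The dendritic cell genes Clec10a, a lectin, and Xcr1, a chemokine receptor, were called higher in AMPH than in saline at 16 °C (1.77) and lower in AMPH at 22.5 °C than at 16 °C (-0.97), respectively.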
